A study of Mus musculus with 57 samples.

Results

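*Padi1*, *Padi2*, *Padi3* and *Padi4* encode peptidylarginine deiminases, and their transcripts were followed across 57 bulk RNA-seq libraries of mouse embryonic tissues. The 4 genes were chosen by name among 56860 genes, because *Padi2* was higher in *Hoxa5*-/- diaphragm whichever library was left out. The diaphragm values of these genes therefore describe the choice and carry no test, while the other tissues were not used in it. Libraries came from wild-type (wt) and *Hoxa5*-/- embryos in 7 contexts named by embryonic day (E): E12.5 lung, E15.5 lung, E15.5 trachea, E15.5 diaphragm, E10.5 somites, E12.5 somites and iBAT, the interscapular brown fat, from E18.5. Each group held 4 libraries, apart from *Hoxa5*-/- somites at E10.5 with 3 and both iBAT groups with 5. Embryos of both genotypes were on the 129/Sv background, and the *Hoxa5*-/- embryos carried the *Hoxa5*tm1Rob allele in all cells, a null allele with a *neomycin* cassette inserted into the homeobox. The samples called somites were pieces of body wall at neck and shoulder level and held other tissues besides somites. *Hoxa5* itself was lower in the mutants of all 7 contexts without overlap, at 0.252 to 0.546 of the wt mean in TPM, a transcript abundance scaled for gene length and library size.

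Peptidylarginine deiminases are calcium-dependent enzymes that convert arginine residues in proteins to citrulline, which removes a positive charge. PADI2 is the family member with the widest tissue distribution and is known from skeletal muscle, brain glia, macrophages and secretory glands. PADI1 and PADI3 act on keratins, filaggrin and trichohyalin in epidermis and hair follicles, and PADI4 citrullinates histones in neutrophils and other cells. The remaining paralog, *Padi6*, is an oocyte and early embryo gene.

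The family lies in one cluster of 225.2 kb on chromosome 4 (GRCm39). *Padi2* (ENSMUSG00000028927.7, chr4:140633655-140679897) is on the plus strand. Its neighbours in the cluster, *Padi1* (ENSMUSG00000025329.4, chr4:140540294-140573089), *Padi3* (ENSMUSG00000025328.10, chr4:140512676-140537959), *Padi4* (ENSMUSG00000025330.7, chr4:140473176-140501547) and *Padi6* (ENSMUSG00000040935.13, chr4:140454666-140469954), are all on the minus strand. *Padi1* and *Padi2* therefore point away from each other, with 60565 bases between their starts. In the deposited annotation the lncRNA *Gm13032* runs antisense over *Padi1* and shares 1200 exonic bases with it. The snRNA *Gm26226* sits inside an intron of *Padi2* on the same strand, and the lncRNA *Gm13031* runs antisense over the 3′ end of *Padi2* with 149 exonic bases in common. The strand setting of the counting was not given in the sources used here, so reads in such stretches cannot be assigned with certainty.

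The promoters of *Padi2* and of its divergent neighbour *Padi1* are shown because they differ in CpG content, a property that the choice of genes did not use. Each run is the 250 bases before the RefSeq transcription start, read 5′ to 3′ in the direction of the gene from RefSeq (GRCm38.p6) and matched once and exactly to GRCm39. Capitals mark CpG dinucleotides.
*Padi2*, plus strand, chr4:140633421-140633670: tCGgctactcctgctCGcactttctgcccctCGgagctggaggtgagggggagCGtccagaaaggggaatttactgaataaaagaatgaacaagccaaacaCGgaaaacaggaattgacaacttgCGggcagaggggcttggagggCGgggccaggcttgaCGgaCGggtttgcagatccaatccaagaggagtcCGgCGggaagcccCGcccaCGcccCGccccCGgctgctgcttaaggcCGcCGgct
*Padi1*, minus strand, chr4:140573090-140573339: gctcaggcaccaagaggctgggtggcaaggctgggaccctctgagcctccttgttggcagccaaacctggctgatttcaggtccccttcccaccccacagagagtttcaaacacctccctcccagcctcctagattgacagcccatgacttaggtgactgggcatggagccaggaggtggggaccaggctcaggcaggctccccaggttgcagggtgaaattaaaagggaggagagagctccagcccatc
The *Padi2* run held 17 CpG dinucleotides and the *Padi1* run 0. Over the full 300-base window, which adds 50 bases after the start, *Padi2* had 22 CpG dinucleotides, against 3 in *Padi1*, 4 in *Padi3*, 8 in *Padi4*, 2 in *Padi6* and a median of 7 over 32841 promoters. The GC content was less apart, at 63.3% for *Padi2*, 61.3% for *Padi1*, 56.7% for *Padi3* and 66.3% for *Padi4*. The letters GGGCGG, read on both strands, occurred 3 times in the *Padi2* window and 1 time in that of *Padi3*, and 35.7% of all promoters held them. TATAAA was found in the *Padi4* window alone among the members, from 31 to 26 bases before the start, and 13.6% of all promoters held it on either strand. TAATTA, the core of many homeodomain sites, was in none of the 4 windows, and 5.29% of all promoters held it. CAGCTG, an E-box core, was also in none of them, with 16.3% of all promoters holding it. These matches describe letters only and say nothing of binding.

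*Padi2* was the leading transcript of the family in most tissues. It was counted in all 57 libraries, with at least 22 reads, and had the highest TPM of the 4 genes in 47 of them. *Padi4* led in 6 libraries, of trachea and E12.5 lung, *Padi1* in 2 tracheas and *Padi3* in 2 iBAT libraries. *Padi1* was under 1 TPM in 53 libraries, *Padi3* in 56 and *Padi4* in 38. *Padi6* had no read in 38 libraries and at most 6 reads in any.

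In wt tissues, mean *Padi2* levels spanned 6.26-fold. Diaphragm had 6.53 ± 1.71 TPM (SD, n = 4), somites at E12.5 had 5.77 ± 0.63 (n = 4), lung at E12.5 had 3.62 ± 0.53 (n = 4) and somites at E10.5 had 3.03 ± 0.43 (n = 4). Lower levels were found in trachea with 1.47 ± 0.22 TPM (n = 4), lung at E15.5 with 1.40 ± 0.20 (n = 4) and iBAT with 1.04 ± 0.32 (n = 5). Neighbours in this order had overlapping ranges except at 2 steps, between E12.5 somites and E12.5 lung and between E10.5 somites and trachea. Diaphragm, lung and trachea were sequenced at another centre than somites and iBAT, with other read lengths, so the order across these sets is a description.

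**Figure D1:**
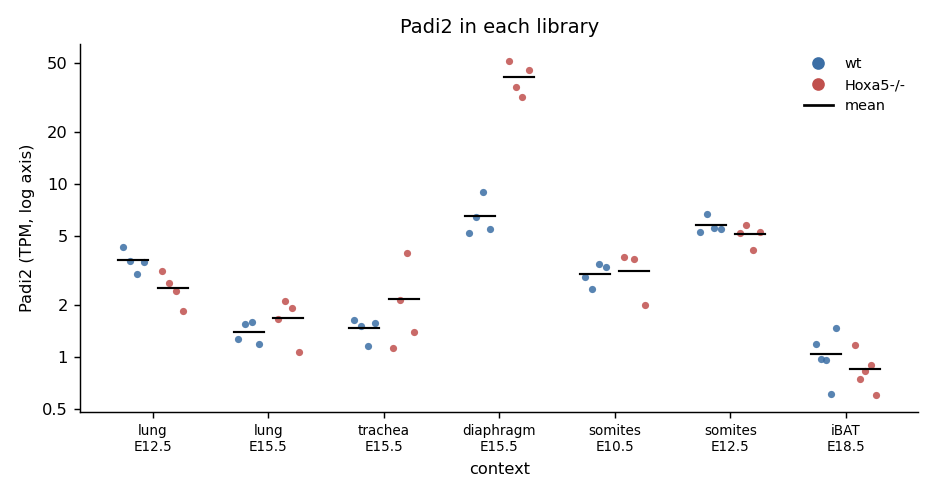
*Padi2* TPM on a log axis in each library (points) of the 7 contexts, with wt in blue, *Hoxa5*-/- in red and group means as bars. The 4 *Hoxa5*-/- diaphragms lie between 31.9 and 51.6 TPM, while every other library is at or below 8.98 TPM.

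The difference for which *Padi2* was chosen was large in every diaphragm library. The wt diaphragms had 5.20, 6.46, 8.98 and 5.50 TPM, from 169, 266, 358 and 278 reads. The *Hoxa5*-/- diaphragms had 51.6, 36.4, 31.9 and 45.7 TPM, from 2559, 2421, 1542 and 2817 reads. The groups did not overlap, and the lowest mutant diaphragm was 3.56-fold above the highest of all other libraries in the series. The mean was 6.34-fold higher in the mutant, and the edgeR log2 fold change was 2.66 (SE 0.20). Leaving out each library in turn gave log2 fold changes from 2.54 to 2.84. In this context 0.594% of 18019 genes tested were called, of which the higher calls made up 0.105% of the genes tested. To be called, a gene needed both an adjusted p below 0.05 and a 1.5-fold difference. *Padi2* was picked from this contrast because it was higher whichever library was left out. Its call, its SE and the leave-one-out range are therefore not evidence of their own. In these bulk samples, more cells of a type and more RNA per cell cannot be told apart.

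The other members overlapped between the genotypes in diaphragm. *Padi3* in wt diaphragm had 0.269, 0.0706, 0.401 and 0.259 TPM, against 0.293, 0.219, 0.181 and 0.354 TPM in the mutant. *Padi4* had 0.415, 0.780, 0.312 and 0.349 TPM in wt and 0.272, 0.203, 0.172 and 0.421 TPM in the mutant. *Padi1* had at most 6 reads in any diaphragm. All 3 genes were under the minimum mean of 1 TPM, so no fold change is given for them. *Padi2* made up 88.7 ± 2.3% (SD, n = 4) of the summed TPM of the 4 members in wt diaphragm and 98.7 ± 0.2% (SD, n = 4) in the mutant.

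The 2 annotated genes that overlap *Padi2* had more reads in the mutant diaphragm as well. *Gm26226*, in the *Padi2* intron, had 0, 0, 2 and 0 reads in wt diaphragm and 13, 9, 7 and 9 reads in the mutant. *Gm13031*, antisense over the 3′ end, had 1, 0, 1 and 0 reads in wt and 7, 6, 2 and 4 reads in the mutant. Both were higher in all 4 mutant libraries than in every wt library, at few reads. How many of all genes separated in this way in diaphragm was not counted. Both genes also overlap the gene chosen for this contrast, so the separation is a description. *Gm13032*, over *Padi1*, had at most 1 read in any diaphragm. Whether the reads of *Gm26226* and *Gm13031* came from those genes or from *Padi2* transcripts was not tested.

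For the genes around the cluster, the number of calls in diaphragm was at the background. Of the 20 other protein-coding genes within 500000 bases of the cluster, 18 were tested in diaphragm and 0 were called by edgeR, where the 0.594% called among all genes would also give fewer than 1. At an unadjusted edgeR p below 0.05 there were 3, beside 2348 of all 18019 genes. DESeq2 called 1, which was lower, beside 406 of all genes. In 2 of the 18, *Igsf21* among them, all 4 mutant libraries were below all wt libraries. The share of all genes that separated in this way was not counted, so this count says nothing particular of the neighbours. The median log2 fold change of the 18 was -0.09, beside 0.005 over all genes. *Sdhb*, the iron-sulfur subunit of mitochondrial complex II and the nearest coding gene beyond *Padi2*, had a log2 fold change of -0.11 (SE 0.10). *Rcc2*, a mitosis and cell migration gene on the far side of *Padi6*, had 0.04 (SE 0.15). The values furthest from 0 were negative, with *Fam131c* at -1.03 (SE 0.48) and *Igsf21*, a synaptic adhesion gene, at -1.02 (SE 0.24), and edgeR adjusted p values of 0.412 and 0.120.

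**Figure D2:**
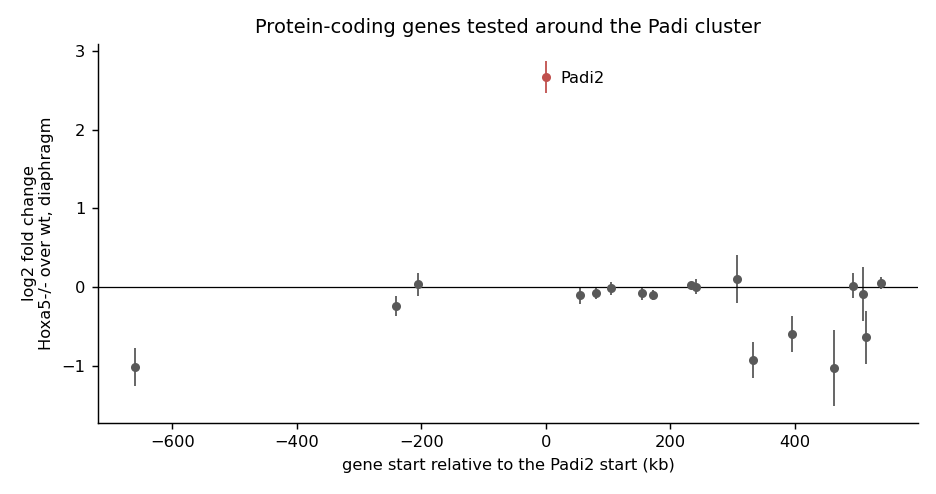
Log2 fold change (*Hoxa5*-/- over wt, diaphragm; points, with bars of 1 SE) of *Padi2* and the 18 neighbouring protein-coding genes tested, by distance of the gene start from that of *Padi2* in kb. *Padi2* lies at 2.66 and the neighbours between -1.03 (*Fam131c*) and 0.10 (*Cplane2*).

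The diaphragm libraries also differed in the markers of other cells. The 10 skeletal muscle markers summed to 22537 to 46073 TPM in wt and 18220 to 32891 TPM in the mutant, which overlapped, and 0 of 10 were called. The 5 neuron markers summed to 14.8 to 38.4 TPM in wt and 3.18 to 4.85 TPM in the mutant, and 3 of the 4 tested were called lower, against 0.488% of all genes called lower. The 6 Schwann cell and glia markers summed to 52.3 to 78.5 TPM in wt and 22.4 to 36.3 TPM in the mutant, and 3 of 6 were called lower. These 2 sums separated the genotypes, in the opposite direction to *Padi2*. Of the 5 smooth muscle markers 3 were called lower, while the sums overlapped at 1172 to 1981 and 895 to 1266 TPM. The macrophage list, a cell type in which PADI2 is known, summed to 392 to 478 TPM in wt and 422 to 467 TPM in the mutant. The neutrophil list was at 28.1 to 164 and 12.6 to 168 TPM. Fibroblast and muscle connective tissue markers, with 6011 to 7991 and 5625 to 8118 TPM, also overlapped. None of the other lists separated the genotypes, and the part of these cell types in the *Padi2* difference was not tested.

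Single diaphragm libraries had high sums of markers of other organs. Hepatocyte markers reached 10521 TPM in wt replicate 3, 12985 TPM in *Hoxa5*-/- replicate 3 and 10972 TPM in *Hoxa5*-/- replicate 4, against at most 2497 TPM in the other 5. Wt replicate 3 also had 404 TPM of lung epithelium markers, against at most 13.1 TPM in the others, and *Hoxa5*-/- replicate 3 had 366 TPM of cartilage markers, against at most 34.0 TPM. Keratinocyte markers were at 221 and 369 TPM in wt replicates 1 and 2 and at most 37.4 TPM in the others. Without replicate 3 of both genotypes, mean *Padi2* was 5.72 TPM in wt and 44.6 TPM in the mutant (n = 3 each), a 7.79-fold difference, and without *Hoxa5*-/- replicate 4 as well it was 7.69-fold (n = 3 and 2). The part of these tissues in the *Padi2* values was not tested.

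**Figure D3:**
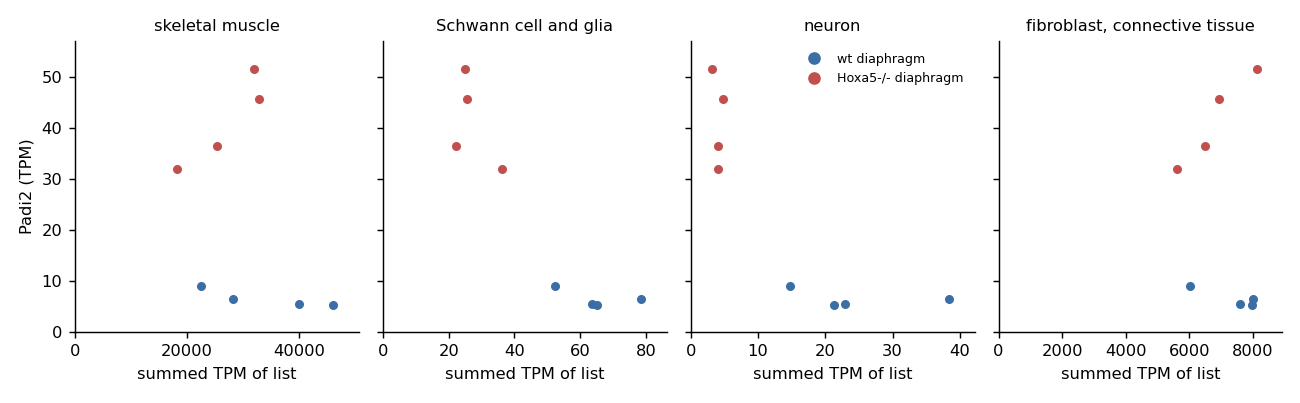
*Padi2* TPM in the 8 diaphragm libraries (y axis) against the summed TPM of 4 marker lists (x axes), with wt in blue and *Hoxa5*-/- in red. The genotypes overlap on the skeletal muscle and connective tissue axes and separate on the glia and neuron axes, where the mutant libraries lie lower.

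Outside diaphragm, *Padi2* was not called in any of the 6 contexts. In trachea, wt libraries had 1.65, 1.5, 1.16 and 1.57 TPM and mutant libraries 1.13, 2.13, 4.02 and 1.40 TPM, a log2 fold change of 0.57 (SE 0.38, edgeR adjusted p = 0.789) where 0.0156% of all genes were called. The mutant value of 4.02 TPM came from replicate 3, which also had the highest sums of skeletal muscle markers, 5112 TPM against 144 to 1485 TPM in the other 7 tracheas, and of cartilage markers, 4001 TPM against 943 to 1665 TPM. Without it the mean was 1.06-fold that of wt. Cardiac muscle sums separated the genotypes in trachea, at 3508 to 6342 TPM in wt and 1722 to 3404 TPM in the mutant. The part of these tissues in the tracheal *Padi2* levels was not tested.

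In lung at E12.5, 3 of 4 mutant libraries were below all wt libraries for *Padi2*, without a call. Wt lungs had 4.32, 3.58, 3.02 and 3.56 TPM and mutant lungs 3.14, 2.69, 2.42 and 1.85 TPM. The log2 fold change was -0.50 (SE 0.20, edgeR adjusted p = 0.591), with 0.0798% of genes called in this context. At E15.5 the lungs had 1.28, 1.56, 1.60 and 1.19 TPM in wt and 1.66, 2.10, 1.93 and 1.08 TPM in the mutant, so 3 of 4 mutants were above all wt. The exception, replicate 4, had 1.94 CPM, inside the wt range of 1.51 to 2.0 CPM, and the other mutants had 2.08 to 2.65 CPM. These CPM are counts scaled for library size with TMM factors, and not for gene length. Replicate 4 also had the lowest shares of mapped and assigned reads among the E15.5 lungs in the study's supplement, so its TPM values need care. Endothelium markers separated the genotypes at this stage, with 706 to 868 TPM in wt and 393 to 668 TPM in the mutant. The 393 TPM was in replicate 4, and the other mutants had 588 to 668 TPM. The part of these differences was not tested. The log2 fold change was 0.35 (SE 0.16, edgeR adjusted p = 0.826), where 0.124% of genes were called.

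Somites and iBAT gave values near 0 or slightly below it. *Padi2* had log2 fold changes of 0.004 (SE 0.21, edgeR adjusted p = 0.994) in somites at E10.5, -0.17 (SE 0.12, adjusted p = 0.999) in somites at E12.5 and -0.23 (SE 0.23, adjusted p = 1.0) in iBAT. The libraries ranged from 2.48 to 3.45 TPM in wt and 2.01 to 3.77 TPM in mutant somites at E10.5, from 5.31 to 6.70 and 4.15 to 5.81 TPM at E12.5, and from 0.610 to 1.47 and 0.605 to 1.18 TPM in iBAT. The genotypes overlapped in each. The shares of genes called were 0.0215%, 0.00529% and 0.00657%.  The genotype effect in diaphragm was not tested against the other contexts, since it was the basis of the choice.

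*Padi4* in lung at E12.5 was the other place where the genotypes did not overlap for a member. Wt lungs had 1.91, 1.68, 1.74 and 1.46 TPM and mutant lungs 2.80, 2.59, 2.91 and 3.35 TPM. All 4 mutants were above all wt, by 1.71-fold in the mean. How many of all genes separated in this way was not counted, so the separation is a description. In this context 1406 of 17548 genes had an unadjusted edgeR p below 0.05. The log2 fold change was 0.78 (SE 0.15) with an edgeR adjusted p of 0.141, which missed the threshold, while DESeq2 gave 0.77 with an adjusted p of 0.00608. DESeq2 called 81 of the 17548 genes here, against 14 by edgeR. Without each library in turn the edgeR value stayed between 0.71 and 0.84 and was called in 0 of 8 fits. The *Padi4* to *Padi2* ratio of TPM was 0.410 to 0.577 in wt and 0.890 to 1.80 in mutant E12.5 lungs, whereas at E15.5 it was 0.637 to 0.914 and 0.323 to 0.701. Marker lists that could carry *Padi4* overlapped at E12.5: neutrophil markers summed to 5.77 to 14.6 TPM in wt and 6.39 to 11.2 TPM in the mutant, and macrophage markers to 153 to 167 and 80.1 to 183 TPM. Erythroid markers reached 23404 TPM in mutant replicate 1, against at most 4344 TPM in the others. Mesothelium sums were lower in the mutant, at 159 to 185 against 188 to 224 TPM, and cartilage sums higher, at 195 to 224 against 155 to 177 TPM, both without overlap. Their part in the *Padi4* values was not tested.

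The difference of the genotype effect between the lung stages was computed after these values had been seen. For *Padi2* the E15.5 effect exceeded that at E12.5 by 0.85 (SE 0.27) on the log2 scale, and for *Padi4* it was lower, at -0.86 (SE 0.27). Neither passed over all genes, with an edgeR adjusted p of 0.913 for both and DESeq2 adjusted p values of 0.411 and 0.425.

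*Padi1* and *Padi4* both passed the minimum of 1 TPM in trachea, and neither was called between genotypes there. *Padi1* had 0.734, 1.33, 3.67 and 0.491 TPM in wt tracheas and 1.85, 0.441, 2.77 and 0.916 TPM in mutant tracheas, a log2 fold change of -0.10 (SE 0.71, edgeR adjusted p = 0.978). The sign turned when wt replicate 3 (0.79), mutant replicate 2 (0.21) or mutant replicate 4 (0.08) was left out. The highest *Padi1* values, 3.67 and 2.77 TPM, were in the tracheas with the highest keratinocyte sums, 1012 and 798 TPM, the others having at most 384 TPM. The same libraries also had the highest sums of simple and airway epithelium (3830 and 2868 TPM), mesothelium (1918 and 1477 TPM), macrophage (367 and 330 TPM) and erythroid markers (14852 and 11654 TPM). The part of these cell types in the *Padi1* values was not tested. *Padi4* had 3.1, 1.89, 1.65 and 2.84 TPM in wt and 1.60, 2.0, 0.625 and 2.04 TPM in mutant tracheas, with a log2 fold change of -0.60 (SE 0.37, edgeR adjusted p = 0.784). The lowest of these, 0.625 TPM, was again mutant replicate 3.

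*Padi3* stayed low throughout. Its wt group means ran from 0.223 TPM in lung at E12.5 to 0.733 TPM in somites at E12.5, with at most 28 reads in a library, and the genotypes overlapped in all 7 contexts. It passed the minimum of 1 TPM in no group mean and was therefore outside the tests.

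**Figure D4:**
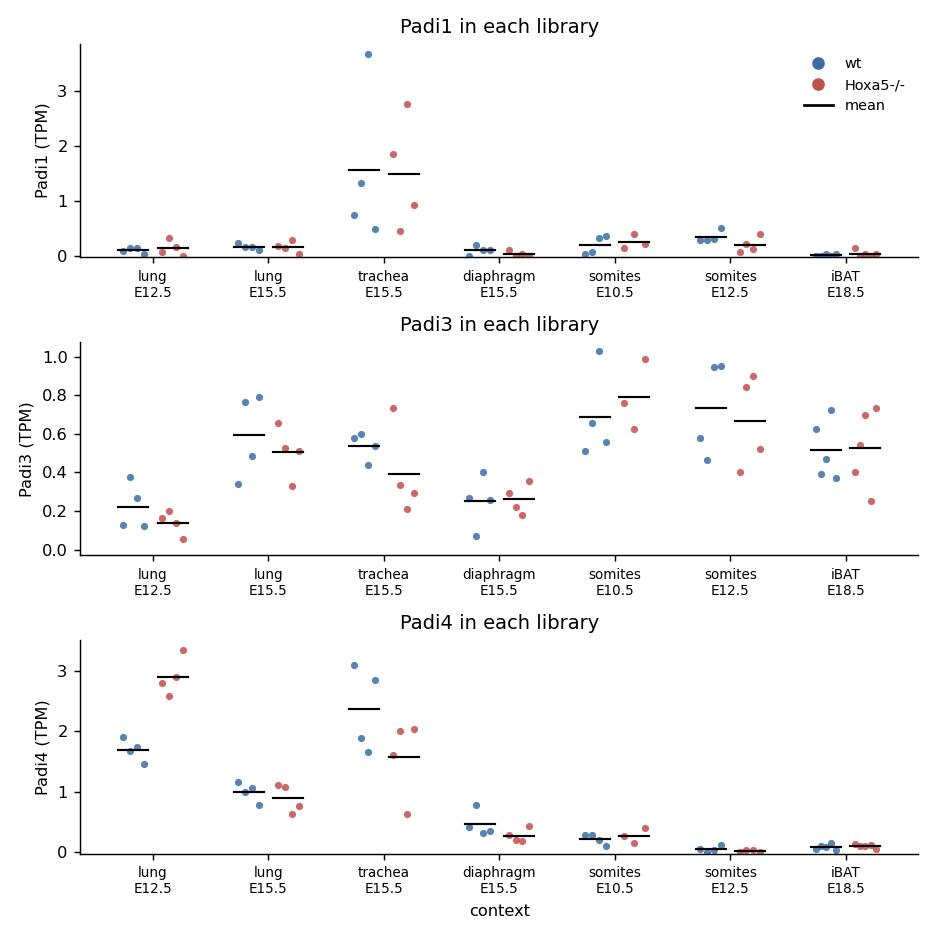
TPM of *Padi1*, *Padi3* and *Padi4* (linear axes, 1 panel a gene) in each library (points) of the 7 contexts, with wt in blue, *Hoxa5*-/- in red and group means as bars. *Padi1* reaches 1 TPM in tracheas alone, *Padi4* is highest in tracheas and E12.5 lungs, and *Padi3* exceeds 1 TPM in 1 library.

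The normal tissues differed in which member they used, and the choice of genes did not rest on these comparisons. In wt lung *Padi2* was lower at E15.5 than at E12.5, with a log2 fold change of -1.40 (SE 0.17, edgeR adjusted p = 7.36e-05). *Padi4* was lower as well, with -0.80 (SE 0.17, adjusted p = 0.00359). Both members tested were called, where 24.6% of all genes were called, 15.4% higher and 9.15% lower. *Padi4* passed the minimum of 1 TPM through E12.5 alone, with 1.70 TPM against 0.999 TPM at E15.5, which favoured a call lower at E15.5. *Padi3*, tested only when a minimum of 10 counts replaced the TPM minimum, went the other way with 1.31 (SE 0.43, adjusted p = 0.0260), from 3 to 13 reads per library at E12.5 and 14 to 28 at E15.5. Marker sums of wt lung changed too, with lung epithelium at 212 to 251 TPM at E12.5 and 3035 to 9025 TPM at E15.5. Cartilage sums were 155 to 177 and 104 to 145 TPM. The part of such changes in the member levels was not tested. With mutant lungs in place of wt, a check added after seeing the data, *Padi4* again fell, by 1.65 on the log2 scale, but *Padi2* had -0.55 and was not called (adjusted p = 0.0750).

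*Padi1* and *Padi4*, but not *Padi2*, were called between trachea and lung at E15.5. In wt, *Padi1* was higher in trachea by a log2 fold change of 3.23 (SE 0.66, edgeR adjusted p = 0.00332) and *Padi4* by 1.2 (SE 0.25, adjusted p = 0.00331), while *Padi2* had 0.03 (SE 0.18, adjusted p = 0.920). So 2 of the 3 members tested were called, with 30.2% of all genes called and 20.1% called higher. Both passed the minimum of 1 TPM through trachea alone, with wt lung means of 0.159 TPM for *Padi1* and 0.999 TPM for *Padi4*. The filter thus favoured calls higher in trachea, and the count is not read beyond that. In the mutants *Padi1* had 3.0 and was called, and *Padi4* had 0.64 and was not (adjusted p = 0.182).

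In the trunk tissues *Padi2* was the one member tested. It rose in wt somites from E10.5 to E12.5 by 0.87 on the log2 scale (SE 0.14, edgeR adjusted p = 9.98e-05), in a comparison where 42.6% of genes were called, 24.1% higher and 18.4% lower. Several marker lists rose over the same stages. Skeletal muscle sums were 253 to 451 TPM at E10.5 and 3234 to 4955 TPM at E12.5 (10 of 10 called higher), and macrophage sums 25.3 to 43.1 and 221 to 268 TPM (8 of 8). Connective tissue sums were 412 to 530 and 4417 to 5309 TPM (6 of 6), cartilage sums 242 to 371 and 1838 to 2585 TPM (5 of 5), and keratinocyte sums 30.2 to 46.5 and 516 to 529 TPM (6 of 6 tested). Neuron sums went the other way, with 710 to 1146 TPM at E10.5 and 179 to 458 TPM at E12.5. Schwann cell and glia sums were 294 to 440 and 197 to 311 TPM, which overlapped. Which of these tissues carried the *Padi2* reads was not tested. *Padi2* was lower in wt iBAT than in wt somites at E12.5, by a log2 fold change of -1.27 (SE 0.18, adjusted p = 1.24e-05), where 66.3% of genes were called and 35.3% called lower. The mutant libraries gave 0.68 and -1.25, both called. Every call among the wt tissues named here held in each fit that left out 1 library in which the gene was tested. *Padi1* between trachea and lung was tested in 7 of 8 such fits, because its mean fell under 1 TPM without wt trachea replicate 3. *Padi3* over the lung stages was tested in none of them.

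Known targets of the enzymes were examined at the transcript level, which says nothing of citrullination. Of 18 substrate genes, 14 were tested in diaphragm and 0 were called by edgeR or DESeq2, with 2 at an unadjusted edgeR p below 0.05. With 0.594% of all genes called, this count is the background and says nothing particular of the substrates. *Vim*, the intermediate filament vimentin, had 895 ± 29 TPM in wt and 884 ± 79 TPM in mutant diaphragm (SD, n = 4 each), and a log2 fold change of -0.03 (SE 0.07). *Des*, muscle desmin, had -0.29 (SE 0.24), and *Mbp*, myelin basic protein, had -0.43 (SE 0.24). *Npm1*, nucleophosmin, had 0.26 (SE 0.08, edgeR adjusted p = 0.236). *Col2a1*, cartilage collagen, had 3.54 (SE 1.32, adjusted p = 0.301), and it is itself one of the cartilage markers, whose sum was high in mutant replicate 3. *Flg*, filaggrin, was at 0 in all wt diaphragms. In the other contexts 7 to 13 of the 18 genes were tested, 0 were called by either tool, and 0 to 2 had an unadjusted edgeR p below 0.05. Between wt tissues they differed in both directions. Over the lung stages 3 were called higher and 3 lower of 10 tested, beside 24.6% of all genes called, and between trachea and lung 5 higher and 2 lower of 11, beside 30.2%. Over the somite stages 6 were called higher and 3 lower of 12, beside 42.6%, and between iBAT and somites 2 higher and 6 lower of 12, beside 66.3%.

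The genes most like *Padi2* depended on the measure of likeness. Over the 14 group means, the highest Pearson correlations of log2(TPM + 1) with *Padi2* were those of the lncRNA ENSMUSG00000120313 (0.94), *Atp13a5* (0.94), a P5-type ATPase known from pericytes, *Map2k1* (0.93), which encodes the kinase MEK1, *Ms4a10* (0.92), *Gm4952* (0.92), *Dmgdh* (0.92), a choline catabolism enzyme, *Slc22a8* (0.92), an organic anion transporter, and *Mgam* (0.92). The 14 points share tissues and sequencing sets, and mutant diaphragm is the extreme point for *Padi2*. Genes entered the ranking with a mean of at least 1 TPM in any group. ENSMUSG00000120313, *Atp13a5*, *Ms4a10*, *Gm4952* and *Mgam* reached this in mutant diaphragm alone, the group for which *Padi2* was chosen. Their high correlations are therefore a description and no sign of a shared pattern. *Map2k1* went from 133 TPM in wt to 165 TPM in mutant diaphragm, and *Atp13a5* from 0.71 to 2.72 TPM. When the 2 diaphragm groups were left out, 0 of the 8 genes remained among the first 8. Within groups, over the deviations of 57 libraries from their group means, *Ache*, acetylcholinesterase (0.66), *Rtn2* (0.65), *Sema6b* (0.64), *Loxl3* (0.63) and *Iffo1* (0.63) were most like *Padi2*. *Padi4* had -0.31 and *Padi1* 0.16 by that measure. In mutant tracheas the SD of *Ache* was 9.03 TPM against 1.23 TPM in wt, that of *Loxl3* 27.5 against 6.68 TPM and that of *Iffo1* 9.60 against 2.36 TPM. Mutant trachea replicate 3 also had the highest tracheal *Padi2*, 4.02 TPM. The part of this library in the correlations was not tested.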

How the data were processed

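PolyA RNA was sequenced at 2 centres, one for trachea, lung and diaphragm and one for somites and iBAT. Per the labels and the study's methods, reads were trimmed (Trim Galore 0.6.5), aligned to GRCm39 (STAR 2.7.9a) and assigned to genes (featureCounts 2.0.3) by the authors. The tables deposited by the authors give raw counts and TPM for each library, and a deposited annotation gives gene positions. Library totals ran from 18369905 to 72991481 counts, which makes members below about 10 reads imprecise. Replicates were labelled as biological.

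Genotype effects and 4 comparisons of wt tissues were fitted to the deposited counts with edgeR 4.0.16 (quasi-likelihood test, TMM scaling, Benjamini-Hochberg adjustment over all genes with a mean of at least 1 TPM in either group), 1 fit per comparison. Called genes had an adjusted p below 0.05 together with a 1.5-fold difference. DESeq2 1.42.0, the study's tool, other filters, scalings and blocks, and leaving out each library were alternatives. The procedure was tested on simulated data. Members, marker and substrate lists and tests were chosen with earlier results of these data known. Named besides the members are *Padi6*, overlapping and neighbouring genes, substrates, and the 8 and 5 genes most like *Padi2*. Rows of the tables of both centres, in which 2573 gene names were spelled differently, were joined in their shared order after checking that coordinates and lengths were identical.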

Additional observations from a re-analysis of the deposited data

Results flagged for a closer look

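In 52 groups of member values with 4 or 5 libraries, 2 held a library far from the others by Dixon's criterion, and chance alone flags about 1 in 20 groups. *Padi1* in *Hoxa5*-/- iBAT replicate 1 was at 0.134 TPM (4 reads), while the other 4 libraries lay between 0 and 0.0337 TPM. *Padi1* in wt somites at E12.5 replicate 4 was at 0.509 TPM (14 reads), against 0.282 to 0.302 TPM (8 reads each) in the other 3. Both rest on few reads and enter no test.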

How the results depend on the processing

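*Padi2* in diaphragm had log2 fold changes of 2.65 to 2.67 under DESeq2, its size factors and the block, and 2.54 to 2.84 without each library. As the gene was chosen for rising whichever library was left out, the last range is no check of its own. Of the member effects outside diaphragm, *Padi4* in lung at E12.5 became called with DESeq2 (0.77), and with mutant libraries in place of wt *Padi2* over the lung stages (-0.55) and *Padi4* between trachea and lung (0.64) were no longer called; the causes were not tested. With all libraries kept, the sign turned only for values near 0: *Padi1* in trachea under the block (0.0095) and *Padi2* between wt trachea and lung without a filter on low values (-0.0074). Leaving out each library turned signs as well. It gave -0.60 to 0.79 for *Padi1* in trachea, -0.13 to 0.22 for *Padi2* in somites at E10.5 and -0.032 to 0.14 for *Padi2* between wt trachea and lung.

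Sample numbers were not treated as pairs, since no context had a correlation over 0.1 in every pair. This rule cannot exclude pairing. Single pairs reached 0.53 in diaphragm and 0.54 in E15.5 lung, and iBAT pairs, which share a number in the library names, had 0.06 to 0.24. With the replicate number as a block no member was called outside diaphragm; the called genes became 1 in trachea, 4 in E12.5 lung, 104 in E15.5 lung, 358 in diaphragm, 0 in E10.5 somites, 2 in E12.5 somites and 2 in iBAT, the last also with the number in the library names as block. In the same order of contexts, DESeq2 called 52, 81, 83, 406, 18, 2 and 4 genes. Without a filter the counts were 32 in lung at E12.5, 196 in diaphragm, 147 and 10 in somites and 6 in iBAT. A single fit per table gave 40 in trachea, 38 in lung at E15.5, 355 in diaphragm, 28 and 2 in somites and 3 in iBAT. Without each library the calls were 0 to 1, 5 to 14, 5 to 37, 30 to 139, 1 to 386, 1 to 2 and 1, with 386 without wt replicate 3 of somites at E10.5, 37 without mutant replicate 3 of lung at E15.5, and, in diaphragm, 30 without wt or mutant replicate 1. For the wt comparisons these ranges were 4071 to 4686 (lung stages), 5243 to 5997 (trachea and lung), 7967 to 8746 (somites) and 12671 to 12761 (iBAT and somites), and without a fold minimum the first 2 gave 9107 and 9584. By TMM-scaled CPM within each table, 2 contexts, trachea and E15.5 lung, exchanged places in the order of wt *Padi2*. Of the 8 genes most like *Padi2*, 3 were shared with a pseudocount of 0.1, 0 with Spearman's correlation, 0 with the 8 groups of the first centre and 0 without diaphragm.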
